A study of Mus musculus with 6 samples.

Results

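The genes described are 10 members of the Hippo pathway and its YAP output: the coactivators Yap1 and Wwtr1 (TAZ), the DNA-binding partners Tead1 and Tead4, the kinases Lats1 and Lats2, and the target genes Ccn1, Ccn2, Ankrd1 and Amotl2. They were chosen by name out of 17097 genes measured. Each was read from probe sets that the platform annotation gives to that gene alone, using the one with the highest mean over the 6 arrays. All 10 were found, on 21 probe sets.

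The tested livers came from DeltaKlf6 mice, which lack Klf6, a zinc-finger transcription factor, in hepatocytes only. The controls were wildtype mice, and all animals are labelled strain C57Bl/6. In both groups 70% of the liver had been removed (partial hepatectomy, PHx, the standard model of liver regeneration), and the remnant was taken 12 h later. There were 3 DeltaKlf6 and 3 wildtype livers with 1 one-colour Affymetrix array each; the labels speak of 6 animals per group in the study as a whole. Neither the promoter that drives the deletion nor the animals' age is given in the sources used here. Whole liver was measured, so fewer cells of a type and less RNA per cell cannot be told apart. All values are log2 expression values, so a difference of 1 is a doubling.

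Hippo signalling restrains organ growth. The LATS kinases phosphorylate YAP and TAZ, which are then held in the cytoplasm or degraded; when the kinases are inactive both coactivators enter the nucleus, bind TEAD factors and switch on genes of growth and matrix signalling. In mouse liver loss of this restraint enlarges the organ, and YAP activity increases after hepatectomy. Control of YAP and TAZ is largely through phosphorylation and location of the proteins, which arrays do not measure; the target genes are the usual transcript readout.

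The promoters of Ccn1, Ankrd1 and Amotl2 are shown because they carry the letters recognised by TEAD factors, the DNA-binding partners of YAP and TAZ. Each line gives the 250 bases before the transcription start, 5′ to 3′ on the gene's strand, from RefSeq (build GRCm38.p6), with the TEAD core CATTCC, or its reverse complement GGAATG, in capitals. The windows lie at chr3:145649986-145650235 (minus strand), chr19:36119845-36120094 (minus strand) and chr9:102717554-102717803 (plus strand). The Amotl2 window lies inside the annotated gene, which begins at chr9:102717091, so it precedes a start within the gene and not the gene's first base.
Ccn1: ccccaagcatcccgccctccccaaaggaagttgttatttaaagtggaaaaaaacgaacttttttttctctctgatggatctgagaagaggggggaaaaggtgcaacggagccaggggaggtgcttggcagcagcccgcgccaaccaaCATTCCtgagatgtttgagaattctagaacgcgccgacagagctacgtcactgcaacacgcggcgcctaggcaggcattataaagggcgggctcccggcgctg
Ankrd1: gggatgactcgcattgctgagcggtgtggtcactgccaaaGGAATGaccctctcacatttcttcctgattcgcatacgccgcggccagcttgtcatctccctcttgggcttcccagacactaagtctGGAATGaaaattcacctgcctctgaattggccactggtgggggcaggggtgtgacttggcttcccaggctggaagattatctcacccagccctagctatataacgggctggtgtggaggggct
Amotl2: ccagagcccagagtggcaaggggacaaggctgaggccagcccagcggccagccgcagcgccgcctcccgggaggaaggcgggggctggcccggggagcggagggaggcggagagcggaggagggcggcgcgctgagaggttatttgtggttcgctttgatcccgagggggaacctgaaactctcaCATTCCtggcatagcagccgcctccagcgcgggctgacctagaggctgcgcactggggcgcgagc

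Ccn1 and Amotl2 each held 1 such match, starting 103 and 65 bases before the start used, and Ankrd1 held 2, at 210 and 123 bases. For Amotl2 that start lies inside the gene. Yap1 and Wwtr1 held the letters too, so that 5 of the 7 members listed in the promoter table had a match, against 14.4% of all 27025 genes in the table (12.6% of 32851 windows). Lats1 and Lats2 had none. Tead1, Tead4 and Ccn2 are named only. The AP-1 letters TGANTCA, searched on both strands, were in no member's window and in 6.75% of all windows, and the CArG box of serum response factor was in none and in 1.47%. With no such match, none overlapped a TEAD match. Matches are descriptions of the letters and not measured binding.

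The library labelled DeltaKlf6 1 went against its label and has to be known before the results. Klf6 on its brightest probe set was at 7.03, 4.61 and 3.15 in DeltaKlf6 1, 2 and 3, against 5.09, 4.43 and 5.20 in wildtype 1, 2 and 3. The other probe sets were at 5.81, 2.82 and 2.83 in DeltaKlf6, against 3.61, 4.03 and 3.41 in wildtype, and at 5.88, 4.12 and 3.74 in DeltaKlf6, against 4.02, 3.73 and 4.44 in wildtype. On all 3 the library labelled DeltaKlf6 1 was the highest of the 6. DeltaKlf6 3 was below every wildtype liver on the brightest and the next-named probe set, DeltaKlf6 2 on the next-named alone, and neither on the last. The next-named probe set was near background. There DeltaKlf6 2 and 3 and wildtype 1 and 3 lay under the brightest of 23 nonspecific control probe sets of their array (3.69 to 4.44 over the arrays). Where the probes lie relative to the deleted part is not known here, and whole liver also holds cells in which Klf6 was not deleted. A wrong label, probes outside the deleted part and other causes cannot be told apart, and none was tested. The directions below are between libraries as labelled. DeltaKlf6 3 differed in array controls: its spiked hybridization controls averaged 11.42, against 10.07 to 10.57 in the other 5 arrays, and its Gapdh signal was 4.83 higher at the 3′ than at the 5′ end, against 3.45 to 4.43. For actin the same measure was 5.05 in DeltaKlf6 3, inside the range of the other arrays, where wildtype 1 had 5.39. Hepatocyte markers (6 of 8 measured) were bright in all 6 arrays, with list means of 12.80 to 13.07 in DeltaKlf6 and 12.87 to 12.98 in wildtype.

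None of the 10 genes differed between the groups by the test. limma called 0 of 10 at an adjusted p under 0.05, where it called 0% of all genes, and the adjusted p was 0.992 to 0.996 for each. At an unadjusted p under 0.05 it was again 0 of 10, against 3.69% of all genes (631 of 17097). The 3 DeltaKlf6 values overlapped the 3 wildtype values for every member, where 9.32% of all genes did not overlap. By group mean 7 of 10 were higher in DeltaKlf6, where 48.4% of all genes were, with a median difference of 0.26 against -0.01 over all genes. That count was 4 of 10, with a median of -0.07, without DeltaKlf6 1. The largest departures from the wildtype mean were in single livers, a different one for Tead1, Ccn2 and Tead4.

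**Figure D1:**
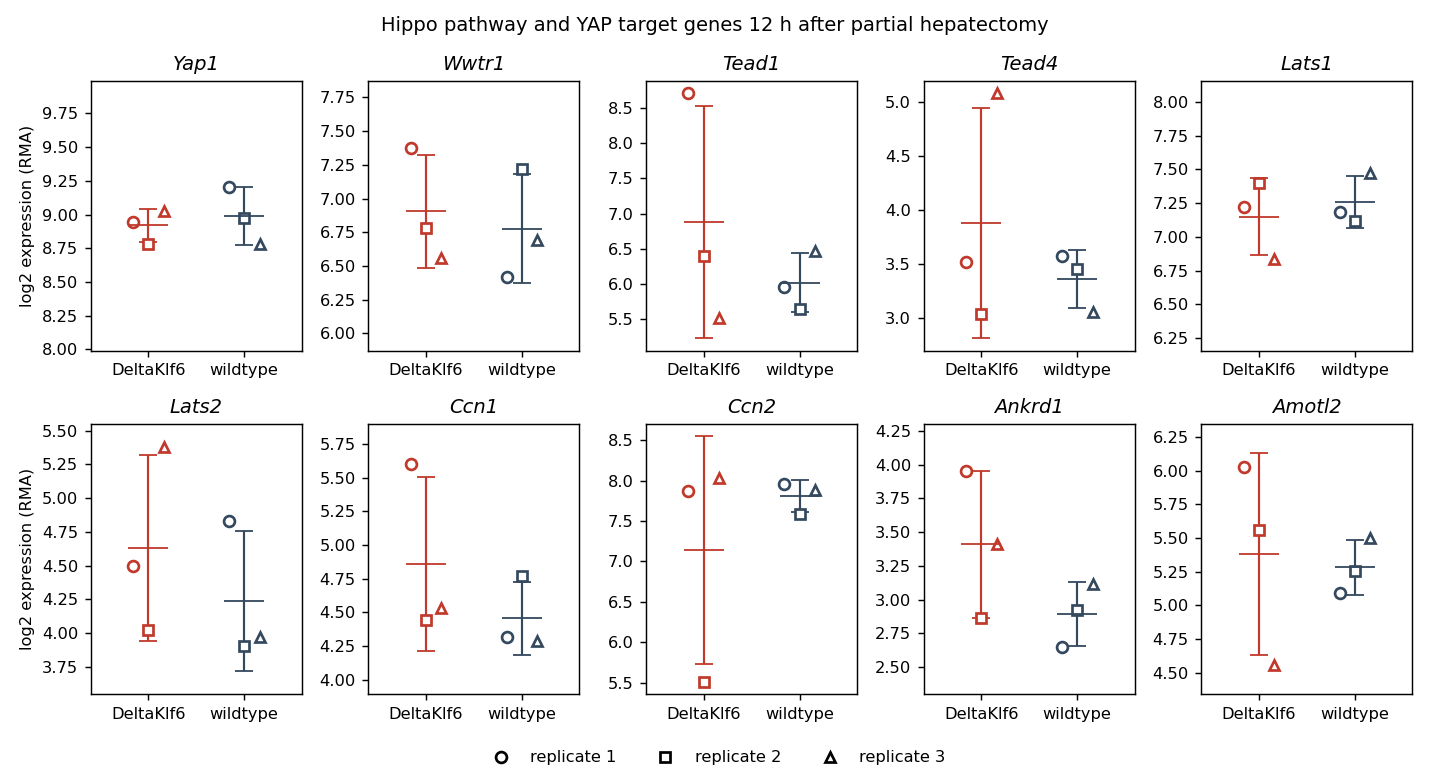
Log2 expression (vertical axes, each spanning its own range of at least 2 units) of the 10 genes in DeltaKlf6 and wildtype livers, with 1 symbol per liver by replicate number, the group mean as a bar and the SD as whiskers (n = 3 each). Tead1 in DeltaKlf6 1 (8.71), Ccn2 in DeltaKlf6 2 (5.51) and Tead4 in DeltaKlf6 3 (5.08) stand away from all other livers.

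Neither coactivator passed the test. Yap1 was at 8.95, 8.78 and 9.03 in DeltaKlf6 1, 2 and 3, against 9.21, 8.97 and 8.78 in wildtype 1, 2 and 3. The groups overlapped almost fully, and the SD was smaller in DeltaKlf6 (0.12) than in wildtype (0.21), the only member of which this was true. The difference was -0.07 (SE 0.21), with a 95% interval from -0.56 to 0.42, that is 0.678 to 1.34 times the wildtype level. A change of Yap1 transcript larger than that lies outside the interval. Its second, dimmer probe set was less even, at 5.37, 4.11 and 3.4 in DeltaKlf6 against 4.23, 4.38 and 4.59 in wildtype. There the highest and the lowest values were both DeltaKlf6 livers, and the difference was -0.11 (SE 0.46).

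Wwtr1, which encodes TAZ, was at 7.37, 6.78 and 6.56 in DeltaKlf6 1, 2 and 3, against 6.42, 7.22 and 6.69 in wildtype 1, 2 and 3. The spread was alike in both groups (SD 0.42 and 0.41), and the livers interleaved. The difference was 0.13 (SE 0.30, interval -0.58 to 0.83). It was -0.11 without DeltaKlf6 1, 0.35 without wildtype 2 and -0.05 without wildtype 1. The other probe sets of Wwtr1 gave 0.05 (SE 0.23) and -0.38 (SE 0.26), so its 3 probe sets differed in sign.

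Of the TEAD factors, Tead1 had the largest SD among the DeltaKlf6 livers of any member (1.65, against 0.42 in wildtype). It was at 8.71, 6.39 and 5.52 in DeltaKlf6 1, 2 and 3, against 5.95, 5.64 and 6.46 in wildtype 1, 2 and 3. DeltaKlf6 1 alone was high, 2.69 above the wildtype mean or 6.47-fold, whereas DeltaKlf6 3 was below every wildtype liver. Only 0.328% of all genes lay as far from the wildtype mean in DeltaKlf6 1, the library in which Klf6 was 2.12 above wildtype. The group difference of 0.86 (SE 0.72, interval -0.81 to 2.53) was -0.06 without that library. It was 1.10 without DeltaKlf6 2 and 1.53 without DeltaKlf6 3. Tead1 has 1 probe set here.

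Tead4 was at 3.52, 3.03 and 5.08 in DeltaKlf6 1, 2 and 3, against 3.57, 3.46 and 3.06 in wildtype 1, 2 and 3. The highest value was DeltaKlf6 3, 1.72 above the wildtype mean, a distance reached by 1.16% of genes in that library. This is the array with the high hybridization controls and 3′ signal of Gapdh, though not of actin, and their part in the result was not tested. In the other 5 arrays Tead4 was no brighter than the brightest of the 23 nonspecific control probe sets, which ranged from 3.69 to 4.44. It was above the next brightest control in all 3 DeltaKlf6 and all 3 wildtype arrays. The wildtype level is thus not clearly above background, and no fold is given. The difference of 0.52 (SE 0.49) was -0.08 without DeltaKlf6 3 and 0.94 without DeltaKlf6 2. A second, dimmer Tead4 probe set had 2.65 in DeltaKlf6 3, against 2.16 to 2.38 in wildtype.

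Neither LATS kinase passed the test. Lats1 was at 7.22, 7.40 and 6.83 in DeltaKlf6 1, 2 and 3, against 7.18, 7.11 and 7.48 in wildtype 1, 2 and 3. The livers interleaved apart from a lower DeltaKlf6 3, and the difference was -0.11 (SE 0.24, interval -0.65 to 0.44). The second, dimmer Lats1 probe set was at 4.57, 3.15 and 3.02 in DeltaKlf6, against 3.88, 3.07 and 3.49 in wildtype, highest in DeltaKlf6 1 and of opposite sign (0.10, SE 0.43). Lats2, itself a YAP target in cultured cells and so a feedback kinase, was at 4.49, 4.02 and 5.38 in DeltaKlf6 against 4.83, 3.90 and 3.97 in wildtype. DeltaKlf6 3 was again the high liver, 1.15 above the wildtype mean, and the difference of 0.40 (SE 0.40) was 0.02 without it. In DeltaKlf6 2 Lats2 lay under the brightest nonspecific control (4.17). Without wildtype 1 it was 0.70 and the groups no longer overlapped, as for 16.6% of all genes in that set of arrays. The other 4 probe sets of Lats2 were dimmer and gave differences between -0.33 and 0.18. The 1 at -0.33 (SE 0.20) was lower in all 3 DeltaKlf6 livers than in any wildtype liver, as 5.91% of all genes were. It was at 2.18 to 2.47 in DeltaKlf6 and 2.56 to 2.84 in wildtype, near the median of the nonspecific controls (2.27 to 2.50).

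**Figure D2:**
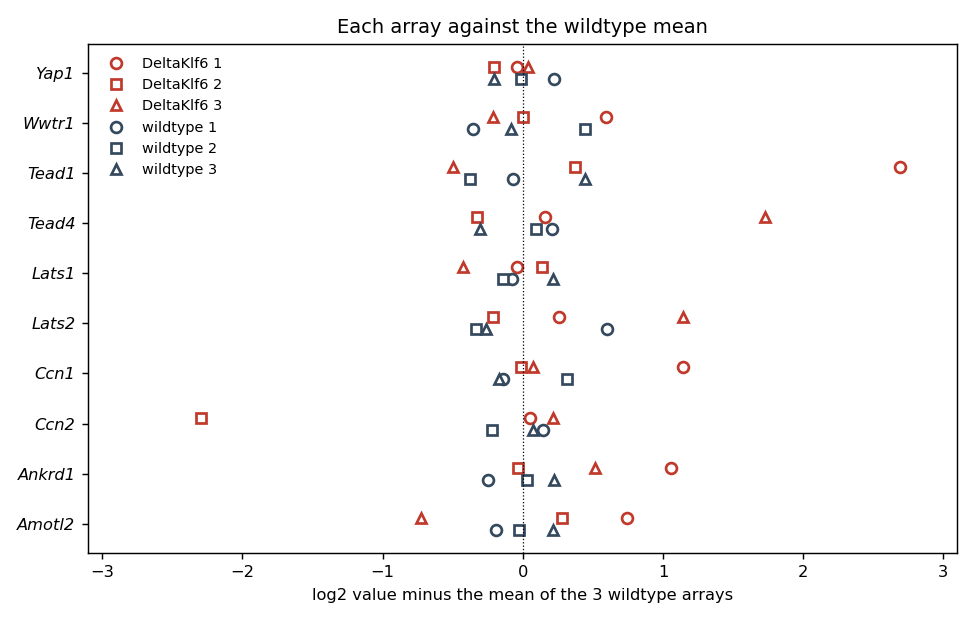
Each liver's log2 value minus the mean of the 3 wildtype livers (horizontal axis) for the 10 genes, with DeltaKlf6 in red above wildtype in dark blue and a symbol per replicate. DeltaKlf6 livers are the farthest from 0 for 9 of the 10 genes, on the right for Tead1 (2.69) and Tead4 (1.72) and on the left for Ccn2 (-2.30). The wildtype livers are part of the mean set at 0, which by itself favours DeltaKlf6 livers as the farthest.

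The CCN targets departed in different livers. Ccn2, the matricellular protein also called CTGF and a standard readout of YAP, was at 7.87, 5.51 and 8.03 in DeltaKlf6 1, 2 and 3, against 7.96, 7.59 and 7.89 in wildtype 1, 2 and 3. In 5 livers the values lay within 7.59 to 8.03, and DeltaKlf6 2 alone was low, by 2.30 from the wildtype mean or 4.92-fold. Only 0.316% of genes lay as far from the wildtype mean in that library. The group difference of -0.68 (SE 0.61, interval -2.09 to 0.74) was 0.13 without DeltaKlf6 2 and -1.12 without DeltaKlf6 3. The spread in DeltaKlf6 was 7.17 times that in wildtype, and Ccn2 has 1 probe set here.

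Stellate cells and endothelium are main sources of Ccn2 in liver, and their markers are given beside it; their part in the result was not tested. The stellate and fibroblast list (9 of 9 measured) had a mean of 5.90, 6.13 and 5.40 in DeltaKlf6 1, 2 and 3, against 5.61, 5.93 and 5.73 in wildtype. DeltaKlf6 2 was thus the highest of the 6 for that list. The endothelial list (9 of 9) was at 6.43, 6.42 and 5.80 in DeltaKlf6 1, 2 and 3, against 6.60, 6.23 and 6.42 in wildtype, with DeltaKlf6 3 the low one. Summed on the linear scale and given as log2, the stellate signal was 9.40 to 10.72 in DeltaKlf6 and 10.02 to 10.41 in wildtype. The endothelial sum was 10.46 to 10.54 in DeltaKlf6 and 10.56 to 10.64 in wildtype, narrowly lower in every DeltaKlf6 liver. Such a sum follows the brightest markers, and Clec4g, the brightest here, overlapped between the groups (-0.06, SE 0.27). How often such sums separate over other sets of genes was not worked out. Kdr, a receptor of endothelial cells, was at 5.60, 6.28 and 5.18 in DeltaKlf6 1, 2 and 3, against 6.50, 6.63 and 6.54 in wildtype, without overlap. It was the only 1 of the 9 endothelial markers without overlap, where 9.32% of all genes did not overlap. By group mean 5 of 9 stellate and 3 of 9 endothelial markers were higher in DeltaKlf6, and none passed the test.

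Ccn1 (CYR61), the related matricellular protein and an immediate early gene, was at 5.60, 4.45 and 4.53 in DeltaKlf6 1, 2 and 3, against 4.32, 4.77 and 4.29 in wildtype 1, 2 and 3. DeltaKlf6 1 was the high liver, 2.21-fold over the wildtype mean, and the others lay inside the wildtype range. In DeltaKlf6 2, where Ccn2 was low, Ccn1 was 0.01 under the wildtype mean. The difference of 0.40 (SE 0.34, interval -0.39 to 1.19) was 0.03 without DeltaKlf6 1 and 0.61 without DeltaKlf6 2. Without wildtype 2 the groups no longer overlapped, as for 17.8% of all genes in those 5 arrays. The chosen probe set is of the type that can cross-hybridize. The other, at 4.96, 3.87 and 3.15 in DeltaKlf6 against 4.57, 4.26 and 3.37 in wildtype, was also highest in DeltaKlf6 1 but gave -0.07 (SE 0.49).

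Ankrd1, a cardiac ankyrin repeat protein used as a YAP target in many cells, was dim. It was at 3.96, 2.86 and 3.41 in DeltaKlf6 1, 2 and 3, against 2.64, 2.92 and 3.12 in wildtype 1, 2 and 3. In no array was it above the brightest nonspecific control, so these are values near background. It was above the next brightest control in all 3 DeltaKlf6 arrays and in 2 of the 3 wildtype arrays. DeltaKlf6 1 and 3 lay above every wildtype liver and DeltaKlf6 2 among them, with a difference of 0.51 (SE 0.31, interval -0.20 to 1.23). It was 0.24 without DeltaKlf6 1 and 0.79 without DeltaKlf6 2, when the groups no longer overlapped, as for 22.3% of all genes. The other Ankrd1 probe set had the opposite sign (-0.20, SE 0.29).

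Amotl2, a junctional protein of the angiomotin family that binds YAP and is induced by it, was at 6.02, 5.56 and 4.56 in DeltaKlf6 1, 2 and 3, against 5.09, 5.26 and 5.50 in wildtype 1, 2 and 3. The 3 wildtype livers lay within the range of the DeltaKlf6 livers, which spread on both sides (SD 0.75 against 0.20). The difference was 0.10 (SE 0.37, interval -0.76 to 0.95). It was 0.51 without DeltaKlf6 3, when the groups separated as they did for 25.3% of all genes, and -0.22 without DeltaKlf6 1.

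**Figure D3:**
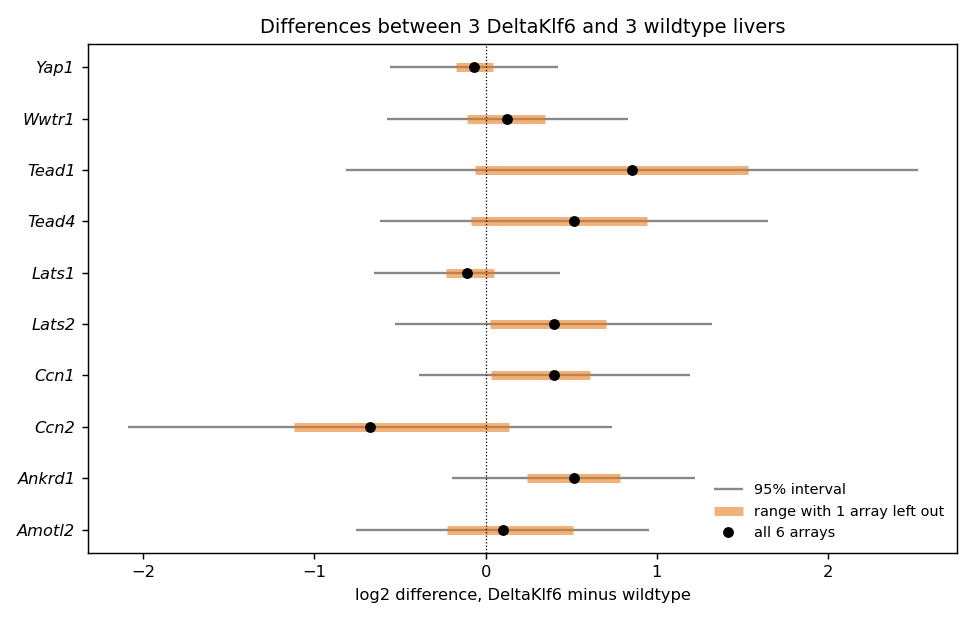
Log2 difference, DeltaKlf6 minus wildtype (horizontal axis), for each gene: the point is the value over all 6 arrays, the thin line limma's 95% interval, and the thick bar the range when 1 array is left out. All 10 intervals span 0, and the bars of Tead1, Tead4 and Ccn2, with points at 0.86, 0.52 and -0.68, reach across 0.

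The spread among the DeltaKlf6 livers was wider than in wildtype for most members, as it was for most genes on the arrays. The SD was larger in DeltaKlf6 for 9 of 10, with a median ratio of 2.34, though the ratio was 1.03 for Wwtr1 and 0.58 for Yap1. Over all genes it was larger for 68.1%, with a median ratio of 1.51. A DeltaKlf6 liver was the one farthest from the wildtype mean for 9 of 10, where this held for 84.1% of all genes. In 5 of these it was DeltaKlf6 1, in 3 DeltaKlf6 3 and in 1 DeltaKlf6 2. Each wildtype liver is part of the wildtype mean, which by itself favours DeltaKlf6 livers as the farthest. The count of farthest livers is therefore no measure of spread.

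Over all 21 member probe sets, DeltaKlf6 1 was the highest of the 6 arrays in 9 and the lowest in none. Over all single-gene probe sets it was highest in 19.5% and lowest in 18.9%. DeltaKlf6 3 was lowest in 7 of 21 and highest in 5, where over all probe sets it was lowest in 25.8% and highest in 21.9%. DeltaKlf6 2 was highest in none of the 21, against 17.2% of all probe sets. Probe sets of 1 gene share a transcript, and the 21 are therefore not independent.

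The genes with the most similar values to Ccn1, Ccn2 and Ankrd1 over the 6 arrays were found by root mean square distance, after each gene was centred on its own mean. For Ccn2, whose own root mean square was 0.89, they were St3gal5 (distance 0.17), a ganglioside sialyltransferase, Fkbp5 (0.19), a co-chaperone of the glucocorticoid receptor, and Jdp2 (0.30), a bZIP factor. Fkbp5 was at 9.27, 6.79 and 8.95 in DeltaKlf6 1, 2 and 3, against 8.87, 8.80 and 9.18 in wildtype. It was low in DeltaKlf6 2 alone, as Ccn2 was. For Ccn1 (own root mean square 0.45) the rule named Map3k20, Tex9 and Rasip1, each at a distance of 0.10, and for Ankrd1 (0.43) B4galt6 at 0.093, 2410006H16Rik at 0.10 and Tpd52l2 at 0.11. These patterns rest on 6 arrays and mostly on 1 liver each.

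Upstream of the 10 genes, transcripts of the kinase complex and its regulators were mostly lower by group mean, with none past the test. Of 29 listed, 24 were measured, 21 lower and 3 higher, with a median difference of -0.27, against -0.01 and 51.6% lower over all genes. At an unadjusted p under 0.05 were 2 lower and 0 higher, where 2.48% and 1.21% of all genes were, and 4 (Amot, Stk38, Mob1a and Mob1b) did not overlap on the lower side, against 5.91%. The number higher was 7 without DeltaKlf6 3, 6 without wildtype 1 and 5 without wildtype 3. Measured from the wildtype mean, the list median was -0.18, -0.20 and -0.48 in DeltaKlf6 1, 2 and 3. Over all genes it was -0.02, -0.01 and -0.06. DeltaKlf6 3 is also the array with the low upper quartile (5.08, against 5.50 to 5.63 in the others). The part of that array-wide difference was not tested. The lists were chosen with earlier results of these data known.

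Amot, the X-linked angiomotin that tethers YAP at junctions, was at 5.76, 6.45 and 5.74 in DeltaKlf6 1, 2 and 3, against 7.28, 6.96 and 7.33 in wildtype 1, 2 and 3. All 3 DeltaKlf6 livers lay below all 3 wildtype livers, by -1.20 on average (SE 0.26, interval -1.81 to -0.59, limma unadjusted p = 0.00191, adjusted p = 0.992), and without any 1 array it stayed between -1.44 and -1.08. The other probe sets of Amot, much dimmer, gave 0.36 (SE 0.31) and -0.02 (SE 0.21), and the mean of all 3 was -0.29. Stk38, a kinase related to LATS, differed by -0.62 (SE 0.26) and Mob1a, the adaptor that activates LATS, by -0.46 (SE 0.20), both without overlap of the groups. Each had 1 dim probe set of the opposite sign. Wwc2, a scaffold that promotes LATS activity, differed by -0.61 (SE 0.30). None passed the adjusted test.

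The TEAD partners and remaining TEAD genes had 6 of 6 measured and all 6 lower by group mean, against 51.6% of all genes, with a median difference of -0.22. None was without overlap, against 9.32% of all genes. With 1 array left out, 0 to 2 of them were higher. Tead2 differed by -0.51 (SE 0.24) and Vgll4, which competes with YAP for TEAD, by -0.52 (SE 0.28). Vgll3 differed by -0.29 (SE 0.26) and Vgll1 by -0.14 (SE 0.26). Vgll3 and Vgll1 lay under the brightest nonspecific control in all 6 arrays and Tead2 in 5, so these differences are near background. None passed.

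Further YAP and TAZ targets did not point one way. Of 27 listed, 22 were measured, 7 higher and 15 lower, against 51.6% lower over all genes, with a median of -0.09. The number higher was 4 without DeltaKlf6 2, and 10 without DeltaKlf6 1 or without wildtype 3. Ptpn14 and Ajuba stand both here and in the upstream list. Afp, a fetal liver gene, was at 5.34, 5.48 and 5.40 in DeltaKlf6 1, 2 and 3, against 6.72, 6.02 and 6.30 in wildtype. The groups did not overlap (-0.94, SE 0.24, limma unadjusted p = 0.00438, adjusted p = 0.992), though 1 of its 5 probe sets had the opposite sign at 0.23 (SE 0.31). Afp was the only 1 of the 22 without overlap, where 5.91% of all genes were without overlap on the lower side. Gadd45a, a growth arrest gene that p53 also induces, differed by 1.37 (SE 0.59) and was at 5.83 in DeltaKlf6 1, against 2.69 to 3.53 in wildtype. Without that library it was 0.65. In the other 5 arrays Gadd45a lay under the brightest nonspecific control, so the size of its difference is uncertain. Rbms3 (-0.49, SE 0.23) and Jag1, a Notch ligand (0.59, SE 0.30), did not pass either, and Jag1 was under that control in all 6 arrays.

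Targets of serum response factor and its MRTF coactivators, which share several genes with YAP, had 7 of 10 higher by group mean, with a median of 0.18. Over all genes 48.4% were higher. Without DeltaKlf6 1 the list had 4 of 10 higher and a median of -0.04. Flna, an actin crosslinker (0.61, SE 0.29), Actg1, cytoplasmic actin (0.54, SE 0.37), Vcl (0.32, SE 0.26) and Myl9 (0.41, SE 0.44) had the smallest unadjusted p of the list, and none passed. Myl9 lay under the brightest nonspecific control in DeltaKlf6 3, wildtype 1 and wildtype 2, and Flna in wildtype 3, so the sizes of their differences are uncertain. The 4 remaining CCN family genes differed by -0.01 to 0.07, with Ccn3 at 0.07 (SE 0.41), Ccn4 at 0.06 (SE 0.25), Ccn5 at -0.01 (SE 0.21) and Ccn6 at 0.01 (SE 0.19). None passed the test, and all 4 lay under the brightest nonspecific control in all 6 arrays, so that small differences say little of these genes.

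**Figure D4:**
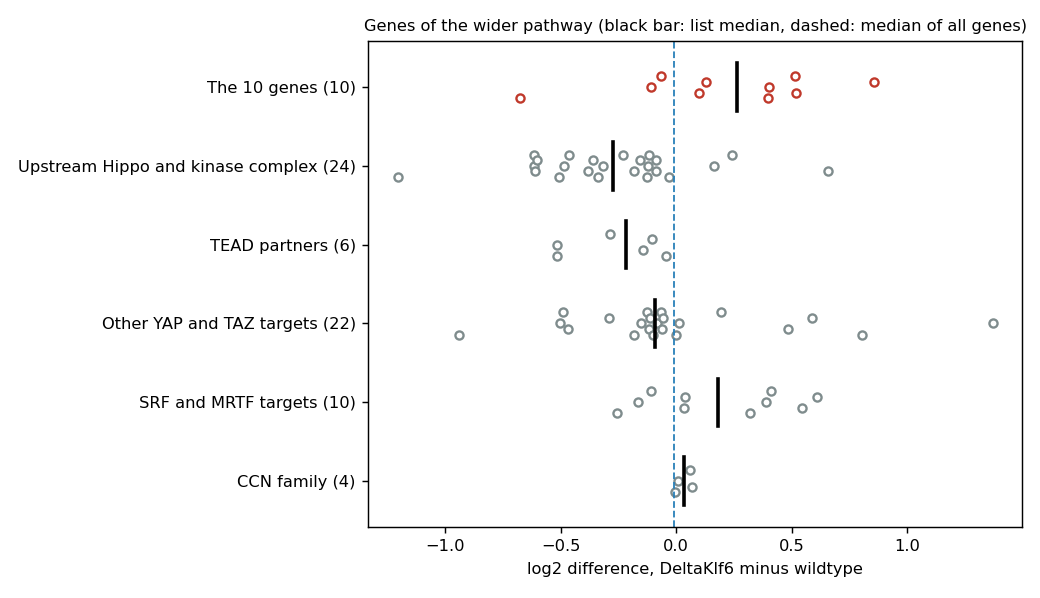
Log2 difference, DeltaKlf6 minus wildtype (horizontal axis), with 1 circle per gene, for the 10 genes (red) and the lists of the wider pathway (grey, number measured in brackets). Black bars are list medians, from 0.26 for the 10 genes to -0.27 for the upstream list, and the dashed line is the median of all genes (-0.01).

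Marker lists of other cell types overlapped between the groups by their means. Cholangiocyte markers (5 of 6 measured, 4 higher) had list means of 3.49, 3.19 and 3.19 in DeltaKlf6 1, 2 and 3, against 2.91, 3.59 and 3.01 in wildtype, all under the brightest nonspecific control. Kupffer cell markers (8 of 8, 6 higher) were at 7.09, 7.70 and 6.83 in DeltaKlf6, against 6.62, 7.10 and 7.03 in wildtype. Their summed signal, which follows the brightest markers, did not overlap, at 10.55 to 11.11 in DeltaKlf6 and 10.02 to 10.47 in wildtype. Of the 8 markers singly, 0 were without overlap, where 9.32% of all genes were. How often such sums separate was not worked out. Neutrophil markers (5 of 6, 1 higher) were at 4.97, 4.43 and 5.11 in DeltaKlf6, against 4.65, 5.18 and 5.27 in wildtype. Mesothelial markers (3 of 3, 2 higher) were at 2.72 to 3.4 in DeltaKlf6 and 2.85 to 3.07 in wildtype. No marker passed the test, and the part of cell composition in the single-liver values was not tested.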

How the data were processed

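Total RNA of 6 livers was measured on one-colour Affymetrix arrays. The authors deposited log2 values; RMA and Affymetrix Expression Console (version 1.2.1) are the tools that the submitters' processing notes name. The base of the logarithm was inferred from the highest value, 13.9, within the range of a scanner on the log2 scale. The upper quartile over all probe sets was 5.08 in DeltaKlf6 3 and 5.50 to 5.63 in the other 5 arrays. The deposited values thus hold an array-wide difference, and its cause was not tested. Of 45141 probe sets, 28898 had a single gene, 551 several and 15692 none in the platform annotation; the 17097 genes were each given the probe set of highest mean. DeltaKlf6 was compared with wildtype by limma 3.58.1 in R 4.3.3 (lmFit, eBayes, two-sided, Benjamini-Hochberg over all genes, threshold 0.05), with statmod 1.5.0 for robust variances. The calculation was tested on simulated data. The members and lists were chosen with earlier results of these data known. Named genes were Klf6, the 10 members the 4 of smallest unadjusted p per list, and the 3 most alike to Ccn1, Ccn2 and Ankrd1. With 3 arrays a group, their number limits the precision. Alternatives were other probe set choices, a filter on dim genes, renormalization, other variance models and array weights, a replicate block, a minimum fold and each array left out.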

Additional observations from a re-analysis of the deposited data

Results flagged for a closer look

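Among 23 nonspecific control probe sets, which match no mouse transcript and lie outside the gene comparison, 1 was brighter in every DeltaKlf6 array than in any wildtype array. It holds the probes of highest GC content and was at 4.44, 4.17 and 4.23 in DeltaKlf6 1, 2 and 3, against 3.71, 3.69 and 3.89 in wildtype 1, 2 and 3, a difference of 0.52. It is also the brightest of the nonspecific controls on each array; the next brightest was at 2.83 to 3.01 in DeltaKlf6 and 2.79 to 2.88 in wildtype. Tead4 in 5 arrays, Ankrd1 in all 6 and Lats2 in DeltaKlf6 2 lay under the brightest control. None of the 11 probe sets of the 10 genes that were not used for the comparison lay above all wildtype arrays in all DeltaKlf6 arrays.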

How the results depend on the processing

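No setting brought any gene past the adjusted threshold, among the 18 alternatives run (limma, or the unmoderated pooled-variance test), and none of the 10 members. The number of genes at an unadjusted p under 0.05 was 631, and 719 with the pooled-variance test, 1165 without DeltaKlf6 2, 1546 without DeltaKlf6 3, 388 without wildtype 1, 379 without wildtype 3, 294 of 7501 with dim genes left out and 38 with a minimum fold of 1.5. The lowest adjusted p of any member was 0.546, for Tead1. With dim genes left out 3 of 6 members were higher, and with 1 array left out 4 to 9 of 10 were, and 0 to 1 had groups that did not overlap. Lats2, Ccn1 and Ankrd1 kept their sign in the settings with 1 value per gene, but each has a probe set of the opposite sign (-0.33, -0.07 and -0.20). That of Lats2 was near the median of the nonspecific controls. With 1 array left out the difference ran from -0.17 to 0.042 for Yap1, -0.11 to 0.35 for Wwtr1, -0.063 to 1.53 for Tead1, -0.084 to 0.94 for Tead4, -0.23 to 0.050 for Lats1, -1.12 to 0.13 for Ccn2 and -0.22 to 0.51 for Amotl2. It ran from -1.03 to 0.91 for Klf6, -0.30 to 0.11 for Vgll1, -0.36 to 0.42 for Ccn3, -0.11 to 0.27 for Ccn4, -0.11 to 0.10 for Ccn5 and -0.048 to 0.051 for Ccn6. Averaging the probe sets of each gene gave -0.066 for Wwtr1 and -0.039 for Ccn3, and without probe sets shared between transcripts Afp was at 0.23, read from its probe set of opposite sign. Klf6 was at -0.068 after quantile normalization, Ccn5 at 0.0018 after median centring and Ccn3 at -0.19 with array weights; the cause was not tested. With the replicate number as a block 0 genes passed and 703 had an unadjusted p under 0.05. Same-numbered livers did not deviate together throughout (correlations over genes of -0.005, 0.26 and 0.084), and DeltaKlf6 1 correlated best with wildtype 3, so the number is not taken as a pairing. The list counts and marker means without 1 array were added after seeing the data.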

Other observations

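Other genes of the wider pathway also departed in single livers; they were chosen after their values were seen and none passed the test. Birc5, encoding survivin, a mitotic protein that YAP induces, was at 4.25, 7.40 and 4.66 in DeltaKlf6 1, 2 and 3, against 3.67, 4.89 and 5.32 in wildtype 1, 2 and 3, and was highest in the liver with the lowest Ccn2. Map4k4, a kinase that can activate LATS, was at 4.93, 3.83 and 3.61 in DeltaKlf6, against 3.62, 3.20 and 3.57 in wildtype, and was highest in DeltaKlf6 1, the only array in which it was above the brightest nonspecific control. Amotl1, a further angiomotin, was at 5.48, 5.16 and 3.33 in DeltaKlf6, against 5.54, 4.89 and 5.0 in wildtype, and Taok1, another upstream kinase, at 6.60, 6.46 and 4.83 in DeltaKlf6, against 6.03, 6.24 and 6.57 in wildtype. Both were lowest in DeltaKlf6 3, the array in which Lats1 and Amotl2 were also lowest. That array was the lowest in 25.8% of all single-gene probe sets and had the low upper quartile (5.08). The part of this array-wide difference was not tested.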
